A study of Neurospora discreta with 48 samples.

Results

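Scaffold 11 is one of the larger assembled pieces of the Neurospora discreta genome, and all 302 of its genes in the authors' deposited table are described here, of 9280 genes on 64 scaffolds in all. Membership was set by position alone: every row whose scaffold is given as 11 was taken. The scaffold itself was chosen by a measured value, the low share of its genes called different between the 2 parental strains, so calls and strain ratios on it are given as a description with no test of the scaffold against the rest. It is set beside scaffolds 10, 12 and 13, which hold similar numbers of genes (376, 295 and 269).

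Neurospora discreta is a filamentous ascomycete fungus that grows as a mycelium and spreads by asexual spores, the conidia. The study sequenced RNA from mycelial pads of 4 strains at 4 times of a cycle of 12 h of light and 12 h of dark, with 3 replicates of each, in search of genes behind clock differences between habitats. The comparison used here sets the African parent FGSC8831, labelled high RI, against the North American parent FGSC8578, labelled low RI, both after 15 min of light and each with 3 libraries. The labels do not spell out RI. All pads were grown at 25 °C in low glucose medium, and the source is labelled mycelia and conidia. The other 42 libraries are not analysed here. Whether the 3 replicates were separate cultures is not said in the labels, and the p-values measure only the spread between these libraries, which may be technical.

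The authors' deposited table gives for each gene 1 mean per strain in normalized counts, that is, counts divided by a size factor for depth and averaged over the libraries. The 2 arms are called B and A, and the columns do not name the strains. Going by how the table's title orders its strains would make B the African and A the North American parent, but directions are kept as B and A. Ratios are log2 of B over A, so a positive value means a higher level in B. Values per library are not in the table, so no SD can be given, and the depth of single libraries is unknown. Over all genes the arm means summed to 10507386 normalized counts in B and 9331506 in A. Making these totals equal would lower every log2 ratio by 0.17.

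A scaffold is a stretch of draft assembly, and its number does not say on which chromosome it lies. When 2 isolates of a species differ at or near a gene, in its promoter for example, RNA levels can differ for that gene alone, while a difference in a regulator elsewhere in the genome can move genes on many scaffolds at once. Neighbouring genes read away from each other, called divergent, share the stretch between their starts, and neighbours read towards each other, called convergent, share the stretch between their ends. No name or function stands beside the gene IDs, so the genes are identified by their position on scaffold 11 as the table lists it. The genome build behind these positions is not given in the sources used here, and the tissue label could not be checked against marker genes.

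On scaffold 11, 20 of 302 genes (6.62%) passed the DESeq test of the authors' deposited table (adjusted p under 0.05), as did 15.0% of all genes. Of the 20 genes, 10 were higher in B and 10 lower in B; over all genes 6.93% were called higher and 8.03% lower. The share called was 15.2% on scaffold 10, 14.2% on scaffold 12 and 24.5% on scaffold 13. Scaffold 11 was not the lowest of all: among the 23 scaffolds with at least 40 genes it lay above scaffold 21 with 1 call in 42 genes (2.38%) and scaffold 20 with 2 in 64 (3.13%), and below the rest. At an adjusted p under 0.01 there were 11 calls (3.64%; 9.60% of all genes), and 9 of the 20 called genes were at least 4-fold apart, genes at 0 included (2.98% of 302; 7.10% of all genes). An unadjusted DESeq p under 0.05 was listed for 54 genes (17.9%; 25.2% of all genes).

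The ratios come from the same contrast as the calls and are given as a description. Over the 298 genes above 0 in B and in A, the median absolute log2 ratio was 0.42, against 0.51 on scaffold 10, 0.56 on scaffold 12, 0.86 on scaffold 13 and 0.52 over all other scaffolds. The quartiles of the ratios on scaffold 11 were -0.40 and 0.45, an interquartile range of 0.85. That range was 1.03 on scaffold 10, 1.12 on scaffold 12, 1.61 on scaffold 13 and 1.04 elsewhere. Among the 23 scaffolds with at least 40 genes, scaffold 11 was not the narrowest: the median absolute log2 ratio was lower on scaffolds 21 (0.38) and 20 (0.40), and the interquartile range was lower on scaffolds 21 (0.64), 20 (0.71) and 19 (0.79).

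Large ratios were fewer, which the choice of a scaffold with few calls itself favours. From the 5th to the 95th percentile the log2 ratios of scaffold 11 spanned 2.55, against 3.75, 3.59 and 5.51 on scaffolds 10, 12 and 13. Of the 298 genes, 82.6% differed by less than 2-fold and 13 (4.36%) by 4-fold or more. On all other scaffolds 74.0% differed by less than 2-fold and 8.77% by 4-fold or more.

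**Figure D1:**
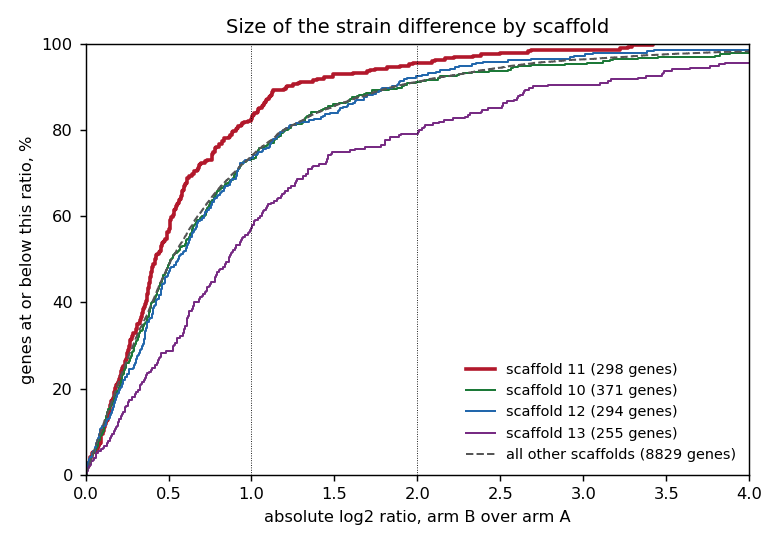
Cumulative share of genes (%) against the absolute log2 ratio of arm B over arm A, for genes above 0 in both arms on scaffold 11, scaffolds 10, 12 and 13, and all other scaffolds; dotted lines mark 2-fold and 4-fold. The curve of scaffold 11 lies above the others from about 0.5 upward and reaches 82.6% at 2-fold, against 74.0% for all other scaffolds.

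Direction was close to even. Of the 302 genes, 162 had the higher mean in B and 140 the lower (53.6% higher, against 51.0% on all other scaffolds), and the median log2 ratio was 0.09, against 0.02 elsewhere. With equal arm totals these medians would be -0.08 and -0.15, so the sign of the scaffold's median depends on the scaling. The summed arm means of scaffold 11 were 276985 normalized counts in B and 221727 in A, a ratio of 1.25, against a ratio of 1.12 for all other scaffolds. That ratio was 0.97, 1.29 and 1.32 on scaffolds 10, 12 and 13.

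Genes of scaffold 11 were somewhat more abundant than those of its neighbours in size. The median of the mean over both arms was 263 normalized counts (quartiles 69.3 and 757), against 185, 225 and 92.9 on scaffolds 10, 12 and 13 and 225 over all other scaffolds. Per kilobase of gene span, introns included, the median was 147 normalized counts, against 92.2, 117 and 65.5 on those 3 scaffolds and 121 elsewhere. Fewer of its genes were scarce: 59 of 302 (19.5%) had a mean under 50, against 24.3% elsewhere, and 85 (28.1%) had a mean of 700 or more, against 24.0%. At the upper end, scaffold 11 held 3.25% of all genes and 2.51% of the summed means, and 2 of its genes had a mean of at least 10000. These shares were 4.05% and 10.4% on scaffold 10, 3.18% and 2.23% on scaffold 12, and 2.90% and 1.77% on scaffold 13. The highest mean was 19057 on scaffold 11 and 720879 on scaffold 10.

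Low counts give wide ratios, so the spread was also read within tiers of expression level. Among genes with a mean under 50 normalized counts, 3 of 59 (5.08%) were called on scaffold 11, against 14.3% elsewhere. From 50 to under 200 it was 6 of 63 (9.52%), against 17.4%, and from 200 to under 700 it was 5 of 95 (5.26%), against 13.5%. At 700 or more, 6 of 85 (7.06%) were called, against 16.3%. The share on scaffold 11 was the lower in all 4 tiers, and also lower than that of scaffolds 10, 12 and 13 in each. These are the calls by which the scaffold was chosen, so the lower shares describe that choice by level and support nothing further.

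The median absolute log2 ratio showed the same order less strongly. It was 0.82, 0.42, 0.38 and 0.37 from the lowest to the highest tier of scaffold 11, against 0.92, 0.53, 0.41 and 0.47 elsewhere. In the tier from 200 to under 700, scaffold 10 came level with it at 0.38, and its interquartile range there (0.65) was below that of scaffold 11 (0.73). The median log2 ratio changed with level on scaffold 11 as it did elsewhere, with -0.27 in the lowest tier and 0.27 in the highest, against -0.29 and 0.28.

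**Figure D2:**
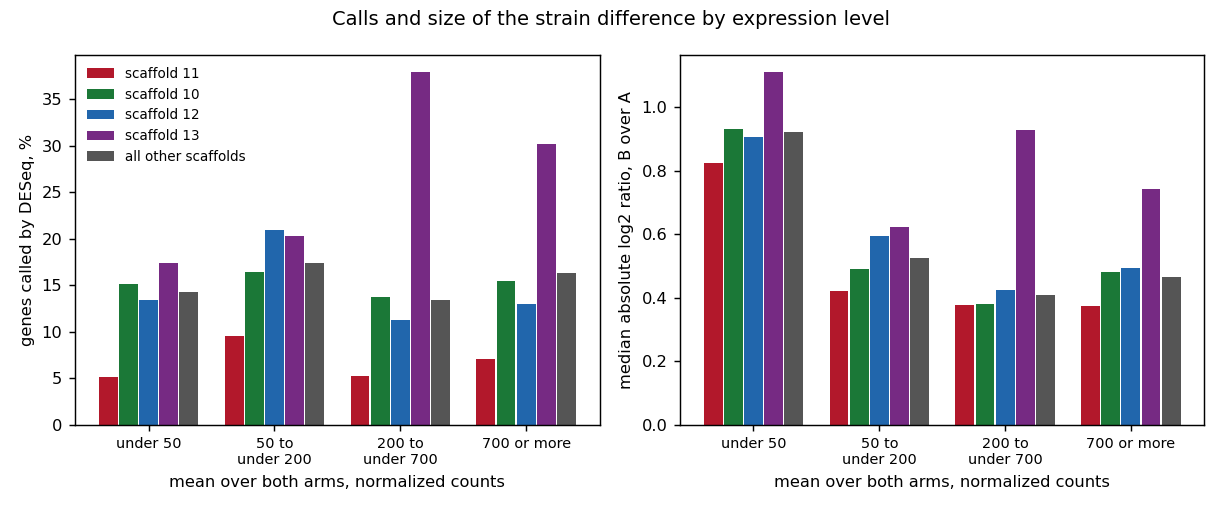
Left, share of genes called by DESeq (%), and right, median absolute log2 ratio of arm B over arm A, in 4 tiers of the mean over both arms (normalized counts), for scaffold 11, scaffolds 10, 12 and 13, and all other scaffolds; bars have no error because genes are not replicates. The bar of scaffold 11 is the lowest in every tier on the left, from 5.08% to 9.52%.

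The precision behind the ratios was of like size. An approximate standard error per gene was taken as the size of the edgeR log2 fold change divided by the square root of its likelihood ratio. At means of 50 normalized counts or more, its median was 0.34 in log2 on scaffold 11 (243 genes), against 0.37, 0.36 and 0.38 on scaffolds 10, 12 and 13 and 0.36 elsewhere. 

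Of the 10 genes called higher in B, 6 lay in the first 160 genes and all of these were well expressed. The strongest of them by level, at 120213 to 123442, had 12870 normalized counts in B and 3329 in A in the authors' deposited table, 3.87-fold higher in B (adjusted p = 0.0012 by DESeq and 0.0015 by edgeR). Its neighbour upstream on the same strand, at 112404 to 114932, had 1038 in B and 477 in A in the authors' deposited table (adjusted p = 0.0348, DESeq). Together they form a run of 2 called neighbours, and another called gene, at 108007 to 110383, stands 1 uncalled gene before them. The authors' deposited table lists it at 1472 in B and 694 in A.

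The other 3 of these 6 differed by 2.43-fold or less. By the authors' deposited table the gene at 320634 to 323625 stood at 4259 in B and 1751 in A (adjusted p = 0.02, DESeq). The gene at 552767 to 556333 had 1135 in B and 524 in A, and the gene at 23842 to 28390 had 866 in B and 432 in A, the smallest called difference at 2.00-fold, both from the authors' deposited table. For these last 2 genes edgeR did not make the call; the authors' deposited table lists its adjusted p at 0.0511 and 0.0577.

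Near the far end of the scaffold lay 4 more genes higher in B, with larger ratios. The gene estExt_Genewise1.C_110612 (protein 84806, 1078121 to 1079788) had 1506 normalized counts in B and 141 in A in the authors' deposited table, 10.7-fold higher in B. Its log2 ratio of 3.42 was the highest on the scaffold among genes above 0 in both arms (edgeR log2 fold change 3.41 with an approximate standard error of 0.40; edgeR adjusted p = 1.69e-15, computed from the likelihood ratio of the authors' deposited table). Its divergent neighbour, a short model of 265 bases at 1076168 to 1076432 with a start 1688 bases away, was higher in B as well, at 49.2 against 7.75 in the authors' deposited table.

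The gene estExt_fgenesh2_pg.C_110246 (protein 128469, 1096413 to 1097467) stood at 97.9 normalized counts in B and 10.5 in A in the authors' deposited table, 9.31-fold higher in B. The last gene called higher in B, at 1136202 to 1137046, was listed at 44.7 in B and at 0 in A by the authors' deposited table. Set against 3 counts over arm A, a mean of 0.961, it was at least 46.5-fold higher in B. In 1 library of arm A the low counts hold neither 1 nor 4, as rescaled and rounded counts would; with the floor at 5 such counts the bound would be 27.9-fold. Bounds cover counting error only.

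Of the 10 genes called lower in B, 6 lay in 1 stretch, close together at first. In the authors' deposited table these are at 856798 to 857708, with 31.5 in B and 141 in A; at 865077 to 865750, with 18.9 in B and 106 in A; and at 889045 to 892544, with 178 in B and 545 in A. Further along, the authors' deposited table gives 188 in B and 447 in A at 900410 to 901048, 81.4 in B and 229 in A at 934416 to 936116, and 87.6 in B and 372 in A at 989473 to 991788. The second of the 6, fgenesh3_pm.C_scaffold_11000215 (protein 141691), was 5.64-fold lower in B (adjusted p = 0.0004, DESeq, as the authors' deposited table lists it). That at 900410 was not called by edgeR (adjusted p = 0.0842, by the authors' deposited table).

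Between the first and the last of these 6, DESeq called no gene higher in B, and edgeR alone called 1 higher and 1 lower. The stretch holds 32 genes over 135 kb, and its 26 uncalled genes had a median log2 ratio of -0.18, 17 of them lower in B. It was picked out after the values had been seen, so no test is given.

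The other 4 genes lower in B were scattered. The gene fgenesh2_pg.C_scaffold_11000075 (protein 113370, 318796 to 319970) stood at 11.4 normalized counts in B and 109.7 in A by the authors' deposited table, a 9.65-fold lower level in B. Its log2 ratio of -3.27 was the lowest of the called genes above 0 in both arms (edgeR adjusted p = 2.45e-10, computed from the likelihood ratio). Its convergent neighbour 663 bases away is the gene at 320634 to 323625 that was higher in B, so this pair differed in opposite directions. The authors' deposited table gives 26.7 in B and 93.9 in A for the gene at 266281 to 266975, and 207 in B and 480 in A for that at 586559 to 591402.

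The tenth, at 1094575 to 1095695, was listed at 0 in B and at 49.1 in A by the authors' deposited table. Against 3 counts over arm B, a mean of 1.15, it was at least 42.5-fold lower in B. It lies 717 bases from estExt_fgenesh2_pg.C_110246 on the same strand, so here too adjacent genes differed in opposite directions, one at 0 in B and one listed at 97.9 in B and 10.5 in A by the authors' deposited table. From a mean of 0, a silent gene and a gene missing or diverged in that strain cannot be told apart. In 1 library of arm B the low counts hold no 2, and no other floor was tried for the 42.5-fold bound.

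**Figure D3:**
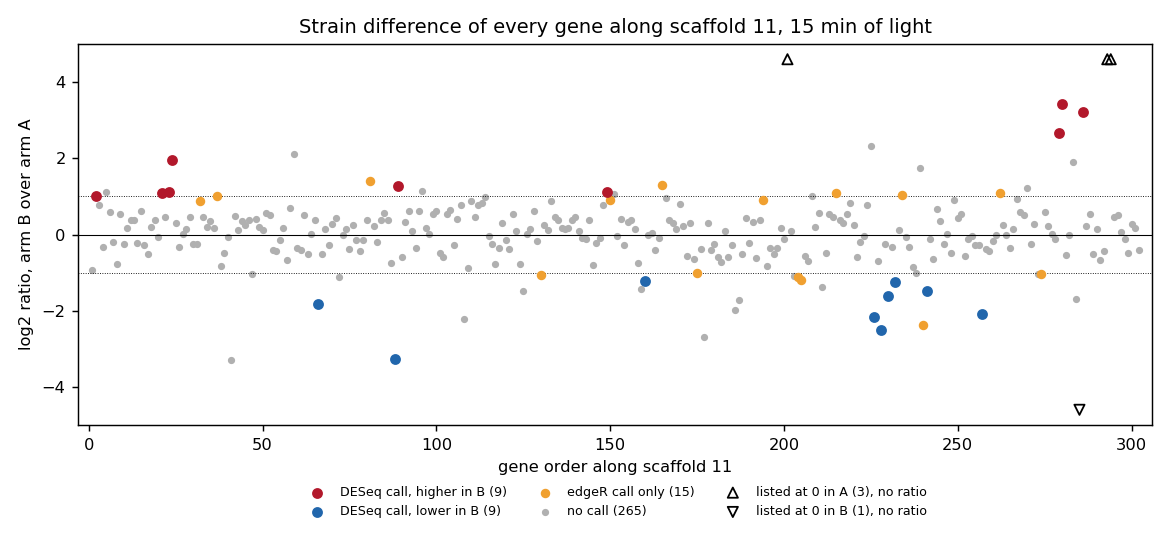
Log2 ratio of arm B over arm A for every gene of scaffold 11, in gene order; colours mark DESeq calls (9 higher and 9 lower in B, besides 2 called genes listed at 0 in 1 arm), genes called by edgeR only and uncalled genes, triangles at the edges mark genes listed at 0, and dotted lines mark 2-fold. The called genes at the left are mostly higher in B, 6 of those from order 226 to 257 are all lower in B, and the largest ratios among called genes above 0 in both arms at the right are higher in B.

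The called genes higher in B were more abundant than those lower in B, with medians of 790 and 121 normalized counts over both arms. They were also longer, with median spans of 2453 and 1148 bases. The median absolute log2 ratio, genes at 0 left out, was 1.28 for the higher and 1.81 for the lower genes. Each of these rests on 9 or 10 genes. Elsewhere the median log2 ratio of all genes also rose with level, from -0.29 under 50 normalized counts to 0.28 at 700 or more. The part of this rise in the level difference between called genes was not tested.

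**Figure D4:**
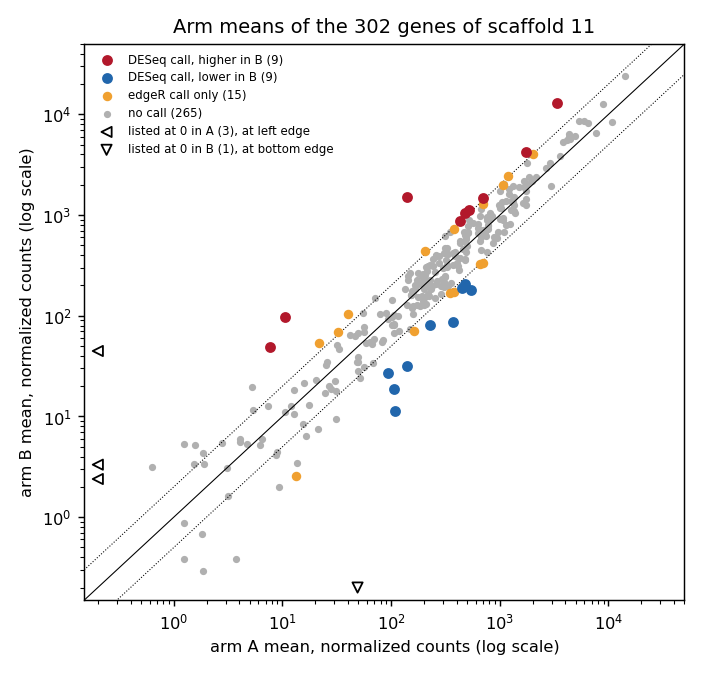
Mean of arm B against mean of arm A (normalized counts, both axes on a log scale) for the genes of scaffold 11, with the line of equality, dotted lines at 2-fold, and genes listed at 0 drawn at the edges. Called genes lower in B and above 0 in both arms lie between about 90 and 550 in A, and called genes higher in B reach 12870 in B.

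By edgeR, also in the authors' deposited table, more genes were called, 34 of 302 (11.3%), where 21.4% of all genes were called. Of these, 19 were higher in B and 15 lower, against 9.74% and 11.6% of all genes. Over all 9280 genes, DESeq called 1388, edgeR 1984 and both tools 1349. On scaffold 11 both tools called 17 genes (5.63%, against 14.5% of all genes), DESeq alone called 3 and edgeR alone 17. Of those 17, 7 had a DESeq adjusted p from 0.0501 to 0.0595 by the authors' deposited table, just outside the limit. Just inside it, the authors' deposited table lists 2 genes, at 0.044 and 0.045.

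Among the 17 genes that edgeR alone called, 2 lay side by side. The authors' deposited table gives 174 in B and 378 in A for the gene at 735350 to 741049 and 71.3 in B and 163 in A for a SNAP model at 741222 to 741824, on the same strand. A further 2 were listed at 0 in A, and the authors' deposited table puts them at only 2.39 and 3.32 normalized counts in B. The second of these, at 1137566 to 1138542, is the divergent neighbour of the called gene at 1136202 to 1137046, also listed at 0 in A. The mean in A was listed at 0 for 3 genes of scaffold 11 and the mean in B for 1.

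Of the 52 genes that differed by at least 2-fold with both arms above 0, 34 were not called by DESeq, and these were scarce, with a median of 13.4 normalized counts over both arms. At 4-fold or more, 7 of 13 were called. The 6 that were not had means from 1.08 to 7.98 normalized counts, and the largest ratio among them was that of a gene at 174321 to 174592. The authors' deposited table lists it at 0.385 in B, the worth of 1 count, and at 3.76 in A. On all other scaffolds 2298 of 8829 genes above 0 in both arms differed by at least 2-fold, and 774 by 4-fold or more. The share of these that was called was not counted, so the counts here are not read as particular to scaffold 11.

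Of the 5 most abundant genes of scaffold 11, 1 was called by DESeq, where 15.0% of all genes were called. The highest, at 430801 to 432253, had 24021 normalized counts in B and 14094 in A in the authors' deposited table, or 13116 per kilobase of span over both arms, and was not called (adjusted p = 0.435, DESeq). The next was at 396851 to 398562, with 12755 in B and 8843 in A in the authors' deposited table (adjusted p = 0.64, DESeq). A gene at 1029801 to 1030871 stood at 8330 in B and 10696 in A in the authors' deposited table (adjusted p = 0.685, DESeq). After it came the called gene with 12870 in B and 3329 in A, given above from the authors' deposited table. The last of the 5, at 182835 to 184352, was listed at 8248 in B and 6414 in A by the authors' deposited table (adjusted p = 0.752, DESeq).

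The longest stretch without a DESeq call held 65 genes over 261 kb, from 591952 to 852987, and the second held 59 genes from 328038 to 547943. Long stretches follow from the few calls for which the scaffold was chosen. Within the 65 genes the median absolute log2 ratio was 0.50, above the 0.42 of the whole scaffold, the median level was 179 normalized counts, and edgeR called 7 of them, 4 higher and 3 lower in B. For comparison, edgeR called 11.3% of the genes of scaffold 11 and 21.4% of all genes. Within the 59 genes the median absolute log2 ratio was 0.41, with 1 edgeR call. By this median the longest stretch without calls was not one of smaller ratios, but its median level was below the 263 of the whole scaffold. The part of level in its ratios was not tested.

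Scaffold 11 had 2 runs of neighbours called in 1 direction, each of 2 genes and each higher in B, the pair starting at 112404 and the divergent pair starting at 1076168. The number and length of runs also depend on the share of calls.

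The direction of the ratios varied along the scaffold. In windows of 100 kb by gene start, the median log2 ratio ranged from -0.25 to 0.33 over 12 windows. The window from 100 to 200 kb had a median of 0.25, with 22 of 31 genes higher in B, that from 300 to 400 kb had 0.33, with 17 of 25, and that between them had 0.00. The 4 windows from 600 to 1000 kb had medians from -0.25 to -0.20, and in the last of these 9 of 29 genes were higher in B. The last 2 windows were above 0 again, at 0.21 and 0.11. With equal arm totals every window median would be lower by 0.17, so the sign of small positive medians, such as the last, depends on the scaling. Expression level moved with these medians in part: the median level was 155 to 171 normalized counts in the first 3 of the 4 negative windows and 281 in the last, against 250 to 638 in the 4 windows from 0 to 400 kb. Of the remaining windows, that from 500 to 600 kb had a median level of 518 and a median log2 ratio of 0.15. Less in step were those from 400 to 500, 1000 to 1100 and 1100 to 1200 kb. Their median levels were 206, 231 and 170, and their median log2 ratios 0.06, 0.21 and 0.11. The part of level in the window medians was not tested. Over 14, 11 and 10 windows of scaffolds 10, 12 and 13 with at least 10 genes, medians ranged from -0.62 to 0.57, from -0.30 to 0.09 and from -0.94 to 0.45. The median absolute ratio of a window stayed between 0.37 and 0.58 on scaffold 11, while the highest window reached 0.93, 0.91 and 2.13 on scaffolds 10, 12 and 13.

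Neighbouring genes of scaffold 11 resembled each other mainly where they were divergent. Across 85 divergent pairs the log2 ratios had a Pearson correlation of 0.42 and a Spearman correlation of 0.49, and 61 pairs (71.8%) had the same sign. Convergent pairs (83) had correlations of -0.0042 and 0.079, with 51.8% of the same sign, and tandem pairs on the same strand (126) 0.028 and 0.11, with 53.2%. These are correlations across genes of the same libraries, in which each gene can enter 2 pairs, and are given without a p.

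On scaffolds 10, 12 and 13 the Spearman correlation of divergent pairs was 0.10, 0.34 and 0.39, and it was 0.23 over all other scaffolds. Divergent pairs had the highest Spearman correlation of the 3 arrangements on scaffolds 12 and 13 and over all other scaffolds as well. On scaffold 10 the tandem pairs had the highest value, at 0.24. Of divergent pairs, 53.5%, 57.1% and 67.2% had the same sign on scaffolds 10, 12 and 13, and 57.2% over all other scaffolds. Convergent genes lay closer together than other pairs on scaffold 11, with a median gap of 631 bases, against 1201 for divergent and 1276 for tandem pairs. The median convergent gap was 622, 449 and 721 bases on scaffolds 10, 12 and 13 and 511.5 over all other scaffolds. The strand setting of the counting is not given in the sources used here, and without it reads that run past a gene's end cannot be told from those of a facing neighbour.

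The gene models of scaffold 11 reached from 7973 to 1169271, with 26.0 genes per 100 kb, against 28.0, 27.2 and 27.6 on scaffolds 10, 12 and 13. Models covered 52.3% of that extent, against 53.5%, 53.9% and 46.4%. The strands were even, with 154 genes on the plus and 148 on the minus strand, and 14 models (4.64%) overlapped another, against 5.56% elsewhere.

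Gene span, from the start to the end of the model, had a median of 1807 bases (quartiles 998 and 2590), against 1674, 1714 and 1521 on scaffolds 10, 12 and 13 and 1714 elsewhere. Scaffold 11 held both more short and more long models than the average: 46 (15.2%) were under 600 bases, against 12.1% elsewhere, and 11 (3.64%) were of 5000 bases or more, against 2.85%. On scaffolds 10, 12 and 13, 14.1%, 10.8% and 18.6% were under 600 bases, and 2.66%, 2.71% and 1.49% were of 5000 bases or more. The longest model, 9145 bases at 88029 to 97173, had 800 normalized counts in B and 1137 in A by the authors' deposited table. The shortest, 159 bases at 434942 to 435100, had 3.34 in B and 1.89 in A in the authors' deposited table. Models named for the SNAP predictor were fewer on scaffold 11, 15 of 302 (4.97%) against 7.89% elsewhere.

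By span, the calls of scaffold 11 were most frequent from 600 to under 1300 bases and in long models. Of models from 600 to under 1300 bases 8 of 58 (13.8%) were called, against 18.8% elsewhere, and of those with 2500 bases or more 7 of 84 (8.33%), against 12.0%. In the most common class, from 1300 to under 2500 bases, 4 of 114 (3.51%) were called, against 15.6% elsewhere. Under 600 bases it was 1 of 46 (2.17%), against 14.0%.

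**Figure D5:**
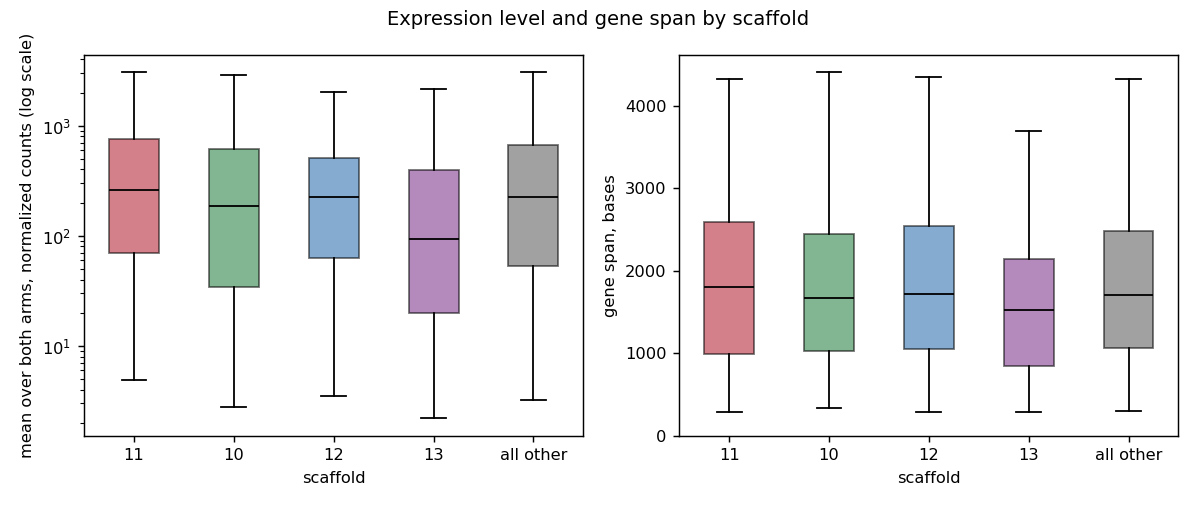
Mean over both arms (left, normalized counts, log scale) and gene span (right, bases) of the genes of scaffold 11, scaffolds 10, 12 and 13, and all other scaffolds; boxes show quartiles and the median, whiskers the 5th and 95th percentiles over genes. The median level of scaffold 11 (263) lies above that of scaffolds 10 (185), 12 (225) and 13 (92.9), and its median span is 1807 bases.

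The edgeR average expression in log2 CPM is a readout that the choice of the scaffold did not use. The libraries behind it are not stated. For each gene with a mean of at least 100, the average was set against log2 of the mean over the 6 libraries compared, and the usual gap was taken off. On scaffold 11 this difference had an SD of 0.26 in log2 over 213 genes, against 0.28 over all other scaffolds. On scaffolds 10, 12 and 13 the SD was 0.24, 0.25 and 0.34. Of the 213 genes 12 differed by more than 0.5 in log2, 5.63% against 5.24% elsewhere. That share was 3.02%, 4.43% and 12.2% on scaffolds 10, 12 and 13. On scaffold 11, 11 of these genes lay above and 1 below, against 166 and 145 elsewhere. The mean taken off comes from the libraries of the contrast that chose the scaffold, so the difference is not free of that choice.

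The second longest model of the scaffold, a SNAP model of 7808 bases at 980577 to 988384, was 1.18 log2 units above its level in these libraries, with 221 in B and 266 in A in the authors' deposited table. Its convergent neighbour at 989473 to 991788, called lower in B, was 0.89 units above. A gene at 1060798 to 1062949, with 170 in B and 350 in A in the authors' deposited table, was 1.00 units above. At the other end was estExt_Genewise1.C_110612, the gene 10.7-fold higher in B, with a difference of -0.62 in log2.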

How the data were processed

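RNA was sequenced by the authors in 48 libraries, and the 1 comparison table they deposited was used. The submitters' processing notes name edgeR, DESeq, HTSeq, TopHat2 2.1.1, SAMtools, cutadapt 1.3 and FastQC 0.11.4, with no role or order. Per the file headers the authors' DESeq columns give a score per arm, the mean of its normalized counts. Per the file headers the authors' edgeR columns give average log2 CPM, log2 fold change and a likelihood ratio score. Both sets of deposited p-values are rounded to 4 decimals. No counts per library were used, so the planned count model was not run and calls are the authors'.

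Computed here, with Python 3.11.15, pandas 2.3.3, numpy 2.4.6 and scipy 1.17.1, were log2 ratios from the deposited arm means, medians, quartiles, windows, runs and gaps between models; deposited p-values of 0 from the authors' edgeR test were computed again from the deposited likelihood ratio with 1 degree of freedom and adjusted over all 9280 genes by the Benjamini-Hochberg method. Overlapping models share at least 1 base. The worth of 1 count in each library was found from arm means under 3, with a tolerance of 0.0004, and floors are 3 counts at the highest worth. The functions were tested on simulated data. Scaffold 11, the tests and the alternatives were chosen with earlier results of these data known. Named were all called genes by position, 2 IDs per direction by ratio among those with a mean of at least 50, the 5 most abundant, the longest and shortest models, runs and the longest uncalled stretch; the remaining genes were picked after their values were seen.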

Additional observations from a re-analysis of the deposited data

How the results depend on the processing

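The 20 calls on scaffold 11 became 34 with the edgeR columns, 11 at an adjusted p under 0.01 and 9 at 4-fold or more, and 17 with both tools or with a mean of at least 50; overlapping models took none away. For the 17 genes that edgeR also called the direction was the same, and for the 3 it did not call as well. The median absolute log2 ratio fell to 0.37 with a mean of at least 200, because scarce genes were left out, and lay between 0.38 and 0.44 under the other 5 alternatives. In all 7 settings, with the main setting among them, scaffold 11 had the smallest median absolute ratio and interquartile range of the 4 scaffolds compared. All settings use the contrast by which the scaffold was chosen, so this is a description and supports nothing further. Setting arm totals equal cannot change an interquartile range. The median span became 1981 bases with a mean of at least 50. The 46.5-fold bound became 27.9-fold with the floor at 5 counts, chosen after seeing the data. No paired analysis was possible because the table holds 1 mean per arm and no replicate numbers; for the same reason leaving out replicates and DESeq2 were not run. Precision is limited by having 3 libraries per strain.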
